A study of Mus musculus with 24 samples.

Results

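Cholinergic neurons were examined in single-nucleus RNA-sequencing data from the deep brain of control (*Pdgfb* ret/wt) and mutant (*Pdgfb* ret/ret) mice. A nucleus was called cholinergic when it held at least 3 unique molecular identifiers (UMIs, each standing for 1 captured transcript) of *Slc5a7* and *Chat* together, with at least 1 of each. It also had to hold 0 UMIs of *Slc6a3*, *Tph2* and *Csf1r*, which mark dopaminergic neurons, serotonergic neurons and microglia, and at most 2 UMIs of the myelin genes *Mog*, *Mag* and *Mobp*. Of 87893 deep brain nuclei with at least 3000 UMIs, 394 (0.448%) met these limits, 200 from mutant and 194 from control mice. All libraries of the series, deep brain and cortex together, held 204925 nuclei within the limits on genes and mitochondrial transcripts. The limits on *Slc5a7* and *Chat* alone were met by 442 deep brain nuclei, before the exclusions.

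The mice were of the strain B6.Pdgfb tm3Cbet, in which the ret allele of *Pdgfb* lacks the retention motif that holds the growth factor PDGF-B near the cell that releases it. Both genotypes carry at least 1 ret allele, so the controls were heterozygous and not wild type. Each genotype had 6 mice, and each mouse gave 1 deep brain library, which pools pallidum, thalamus, hypothalamus, midbrain and pons, and 1 library of cortex with hippocampus. The mutants were 6 females, and the controls were 5 females and 1 male, control 6. Mice numbered 1 to 4 were 5 months 3 days, 5 months 0 days, 5 months 18 days and 4 months 24 days old in both genotypes. Mutant 5 was 4 months 7 days old, control 5 was 4 months 9 days, mutant 6 was 4 months 9 days and control 6 was 4 months 7 days. Calcified vessels are known in the deep brain of the mutants, and the genotype comparison asks how neurons of that region differ beside them.

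Cholinergic neurons make acetylcholine with the enzyme encoded by *Chat*, load it into vesicles with the transporter encoded by *Slc18a3* and take choline back up with the transporter encoded by *Slc5a7*. *Slc18a3* lies within the span of *Chat*, an arrangement known as the cholinergic gene locus. In the deep brain such neurons occur in several unlike groups: projection neurons and interneurons of the ventral forebrain, neurons of the medial habenula that release glutamate as well, neurons of the pontine tegmentum, and motor neurons of the cranial nerves. Those of the basal forebrain are known for carrying the neurotrophin receptor encoded by *Ngfr*.

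In the GRCm38 annotation *Chat* lies at chr14:32408203-32465989 on the minus strand, and *Slc18a3* lies inside it at chr14:32462438-32464850 on the same strand. *Slc5a7* lies at chr17:54273590-54299034, also on the minus strand. On the opposite strand the antisense gene *Gm2990* at chr14:32465042-32483548 overlaps the start of *Chat*. The bases before the start of 4 genes are shown: *Chat* and *Slc5a7*, by which the nuclei were chosen, *Slc18a3*, which shares the locus of *Chat*, and *Prima1*, the gene of the membrane anchor of acetylcholinesterase, which is compared with other neurons below. They come from RefSeq (GRCm38.p6) and read 5′ to 3′ along the minus strand, up to the base before the start of each gene. Bases that lie in exons of any gene are left out. Capitals mark the letters CAAGTG, the core bound by factors of the Nkx2 family.
Chat, chr14:32465990-32466159: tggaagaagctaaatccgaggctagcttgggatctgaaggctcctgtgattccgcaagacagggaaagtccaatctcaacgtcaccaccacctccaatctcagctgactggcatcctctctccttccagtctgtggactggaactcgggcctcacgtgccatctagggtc
Slc18a3, chr14:32464851-32465041: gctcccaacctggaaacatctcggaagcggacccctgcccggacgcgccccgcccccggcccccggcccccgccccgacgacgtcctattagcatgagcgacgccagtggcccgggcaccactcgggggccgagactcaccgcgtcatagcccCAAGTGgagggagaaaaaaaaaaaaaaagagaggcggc
Slc5a7, chr17:54299035-54299284: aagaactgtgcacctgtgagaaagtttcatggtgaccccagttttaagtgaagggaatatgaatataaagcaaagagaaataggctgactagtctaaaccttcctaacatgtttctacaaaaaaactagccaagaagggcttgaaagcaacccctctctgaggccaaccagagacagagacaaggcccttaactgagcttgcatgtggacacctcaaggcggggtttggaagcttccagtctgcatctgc
Prima1, chr12:103242151-103242396: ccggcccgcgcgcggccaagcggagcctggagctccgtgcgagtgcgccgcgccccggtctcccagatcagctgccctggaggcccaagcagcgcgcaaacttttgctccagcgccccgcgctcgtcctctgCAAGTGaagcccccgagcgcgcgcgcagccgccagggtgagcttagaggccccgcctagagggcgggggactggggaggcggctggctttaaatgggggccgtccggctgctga
CAAGTG stood once each before *Slc18a3* and *Prima1* and was not found in these letters before *Chat* or *Slc5a7*. On either strand, 11.6% of 32851 promoters held it within 250 bases. The letters TAATTA (homeodomain core, in 4.84% of promoters), TTCAGCACC (part of the RE1 element, 0.301%), CATTAG (6.36%) and AATTAG (7.48%), both LIM-homeodomain cores, were not found in the 4 windows. The printed bases of *Slc18a3* begin at the base next to the annotated start of *Gm2990*.

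The 12 deep brain libraries held 64736053 to 96459036 UMIs each. The summed cholinergic nuclei held 276336 to 603024 UMIs a library and the summed other neurons 39705800 to 65227800, so a gene's level in the cholinergic nuclei rests on far fewer counts. Median UMIs per nucleus were 8848 to 14434 over the 12 libraries in cholinergic nuclei and 8607 to 12009.5 in other neurons. Any pair of the 24 libraries shared 8 to 220 cell barcodes, with a median of 98. The barcodes of 63 cholinergic nuclei also named a nucleus of another deep brain library, and none named a second cholinergic nucleus. Scrublet called 9 of the 394 as doublets. Levels are given below as CPM, the usual scaling of a gene's counts by all UMIs of the summed nuclei, and intervals cover counting error only.

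The nuclei were chosen by their counts of *Slc5a7*, *Chat* and the excluded genes, so these values are given as a description. The cholinergic nuclei held a median of 8 UMIs of *Slc5a7* and *Chat* together, from 3 to 77, with medians of 5 for *Slc5a7* and 3 for *Chat*. At the edge of the rule, 34 nuclei held exactly 3 UMIs and 41 held 4. Just outside it, 32 nuclei held 1 UMI of each gene, and 196 held at least 3 UMIs of 1 gene with none of the other, of which 176 had *Slc5a7* and 20 had *Chat*. *Chat* stood at 258 to 405 CPM over the 12 mice with a median of 313, and *Slc5a7* at 414 to 869 CPM with a median of 575.

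*Slc18a3*, the vesicular transporter, took no part in the choice, but it shares the locus of *Chat*, and other neurons had been chosen to lack *Chat*. It is therefore given without a test. A UMI of *Slc18a3* was found in 177 of the 394 nuclei (44.9%), in 13 of the 34 with exactly 3 UMIs (38.2%), in 7 of the 32 with 1 of each (21.9%) and in 27 of the 196 with 1 gene only (13.8%). In other neurons it was found in 97 of 58180 (0.167%), and in oligodendrocyte nuclei, which should lack it, in 22 of 14808 (0.149%). Oligodendrocyte nuclei had library medians of 3784.5 to 4946.5 UMIs, so they were shallower than the neurons. *Slc18a3* stood at 43.4, 53.5 and 133 CPM (lowest, median and highest of 12 mice) in the cholinergic nuclei against 0.0362, 0.145 and 0.286 CPM in other neurons. The antisense gene *Gm2990* of the same locus followed it, at 15.0, 33.4 and 40.9 CPM against 0.127, 0.330 and 0.594 CPM. The 2 groups of values did not overlap for either gene.

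The share of cholinergic nuclei did not separate the genotypes. It was 0.448% ± 0.0900 (SD, n = 6) of nuclei in mutants, with a lowest value of 0.331%, a median of 0.427% and a highest of 0.582%. In controls it was 0.443% ± 0.0856 (SD, n = 6), with values of 0.336%, 0.467% and 0.535%. The difference was 0.00418 percentage points (exact permutation test over all splits of the mice, two-sided, p = 0.952). The mutants gave 29, 42, 33, 44, 27 and 25 cholinergic nuclei and the controls 25, 36, 28, 21, 45 and 39. The same limits found 58 nuclei among 34457 in the cortical libraries, or 16.8 per 10000 against 44.8 per 10000 in the deep brain. Of those 58, 25 (43.1%) held a UMI of *Vip*, a peptide gene of cortical interneurons, against 20 (5.08%) of the deep brain nuclei. The cortical libraries of mutant 5 and control 5 gave 19 and 13 of the 58.

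Clustering without the genes of the rule split the 394 nuclei into 7 clusters. Their leading genes are a description, since the same values formed the clusters. Clusters 1 and 2, with 111 and 62 nuclei, carried the genes of the medial habenula: 9 of 9 habenular markers were more than 2-fold above other neurons in both. Among these, *Nwd2* stood at 8115 and 8974 CPM, *Chrna3*, a nicotinic receptor subunit, at 817 and 640 CPM, and *Chrnb4*, a subunit that pairs with it, at 215 and 180 CPM. *Tac2*, which encodes neurokinin B, stood at 247 and 356 CPM, and *Pou4f1*, a transcription factor of habenular neurons, at 42.5 and 52.2 CPM. *Gpr151*, an orphan receptor of habenular axons, separated the pair, with 46.6 CPM in cluster 1 and 198 CPM in cluster 2. These habenular-like nuclei had the shallowest counts of the larger clusters, with median UMIs of 8712 and 8411.5.

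**Figure D1:**
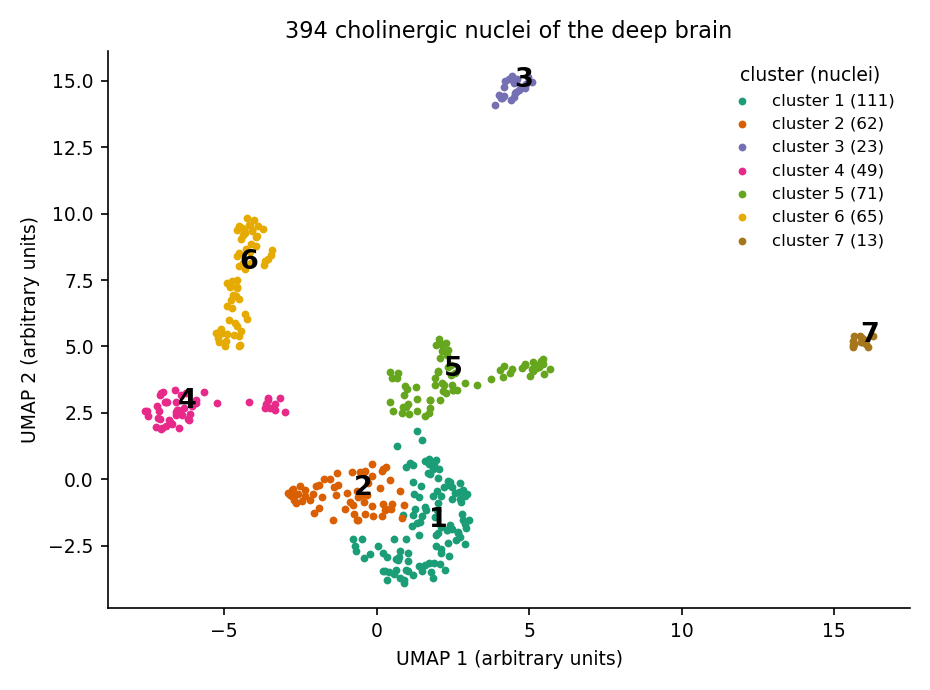
UMAP projection of the 394 cholinergic nuclei of the deep brain, 1 point per nucleus, coloured by cluster, with axes in arbitrary units. Clusters 1 and 2 (111 and 62 nuclei) are the habenular-like nuclei, and cluster 6 (65 nuclei) is the one whose share differed most between the genotypes.

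Cluster 4, with 49 nuclei, was forebrain-like. Of 8 markers of forebrain cholinergic neurons 6 were over 2-fold above other neurons, among them *Lhx8* and *Gbx1*, homeodomain factors that specify these neurons, *Nkx2-1*, the factor of their ventral birthplace, *Zic4*, and the neurotrophin receptor *Ngfr*. *Zic4* was not particular to the cluster, at 67.2 CPM here, 188 and 201 CPM in clusters 1 and 2 and 37.0 CPM in cluster 6, against 11.6 CPM in other neurons. Of the 9 habenular markers 4 were also over 2-fold above other neurons in cluster 4 (*Nwd2*, *Chrnb4*, *Chrna3* and *Chrnb3*). *Lhx8* stood at 222 CPM and *Ngfr* at 190 CPM. *Ngfr* was at 5.7 CPM or less in each of the other 6 clusters, with 3.0 CPM in cluster 6. At a finer resolution 10 of the 49 nuclei moved to a group of 12 that carried habenular genes together with astrocyte genes, with *Nwd2* at 4735 CPM and *Aqp4* at 162 CPM. Scrublet called 3 nuclei of cluster 4 as doublets, and the part of mixed droplets in those nuclei was not tested.

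Cluster 6, with 65 nuclei, shared factors with cluster 4 but not *Ngfr*, and it stays unnamed because no forebrain marker was among its 10 leading genes. *Lhx8* stood at 212 CPM and *Nkx2-1* at 61.0 CPM, while *Isl1*, a LIM-homeodomain factor of striatal and motor neurons, stood at 188 CPM. *Slc17a8*, a vesicular glutamate transporter, stood at 384 CPM against 12.7 CPM in the other cholinergic nuclei. *Drd2*, the dopamine receptor, stood at 288 CPM, *Gdnf*, a trophic factor, at 93.0 CPM, and *Qrfprl*, a receptor-like gene, at 606 CPM against 13.0 CPM. The cholinergic genes were highest of all clusters here, with *Slc5a7* at 1100 CPM, *Chat* at 500 CPM, *Slc18a3* at 118 CPM (31.5 to 70.6 CPM elsewhere), *Ache* at 365 CPM and *Prima1* at 634 CPM. At the finer resolution it split into 33 nuclei with *Drd2* at 498 CPM and 32 nuclei with *Drd2* at 58.5 CPM, the second led by *Unc5d*, a netrin receptor.

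Cluster 5, with 71 nuclei, was mixed and stays unnamed. Of 10 motor neuron markers 5 were over 2-fold above other neurons (*Prph*, *Tbx20*, *Calca*, *Calcb* and *Ret*), and *Calca*, which encodes calcitonin gene-related peptide, stood at 93.0 CPM against 0.793 CPM in the other cholinergic nuclei. The same 4 habenular markers as in cluster 4 were over 2-fold above other neurons here too. At the finer resolution it split into 49 nuclei with *Calca* at 132 CPM and the peripheral intermediate filament gene *Prph* at 74.0 CPM, and 22 nuclei with *Nos1*, the neuronal nitric oxide synthase, at 674 CPM. The level of *Calca* was uneven between mice. Over all cholinergic nuclei of a mouse it stood at 168 CPM in mutant 1, 84.4 CPM in mutant 3 and up to 25.4 CPM in the others. Mutants 1 and 3 gave 2 and 3 of the 49 nuclei. *Nos1* marks the cholinergic neurons of the pontine tegmentum, but it was 1 of 6 such markers that passed 2-fold in the cluster. The cluster had the deepest nuclei, with a median of 17875 UMIs, and Scrublet called 6 of them as doublets.

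Clusters 3 and 7 were small. The 23 nuclei of cluster 3 were led by *Bnc2*, a zinc finger gene, at 1768 CPM against 17.3 CPM in the other cholinergic nuclei, and by *Hgf*, hepatocyte growth factor, at 226 CPM. Every one of the 23 held a UMI of *Slc17a6*, the vesicular glutamate transporter of most subcortical neurons, at 589 CPM. The 13 nuclei of cluster 7 carried 4 of 5 markers of cortical *Chat* interneurons, with *Vip* at 3916 CPM, *Adarb2* at 11465 CPM, *Prox1* at 373 CPM and *Calb2* at 90.8 CPM. They were cortical interneuron-like and had the shallowest counts, with a median of 7745 UMIs.

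**Figure D2:**
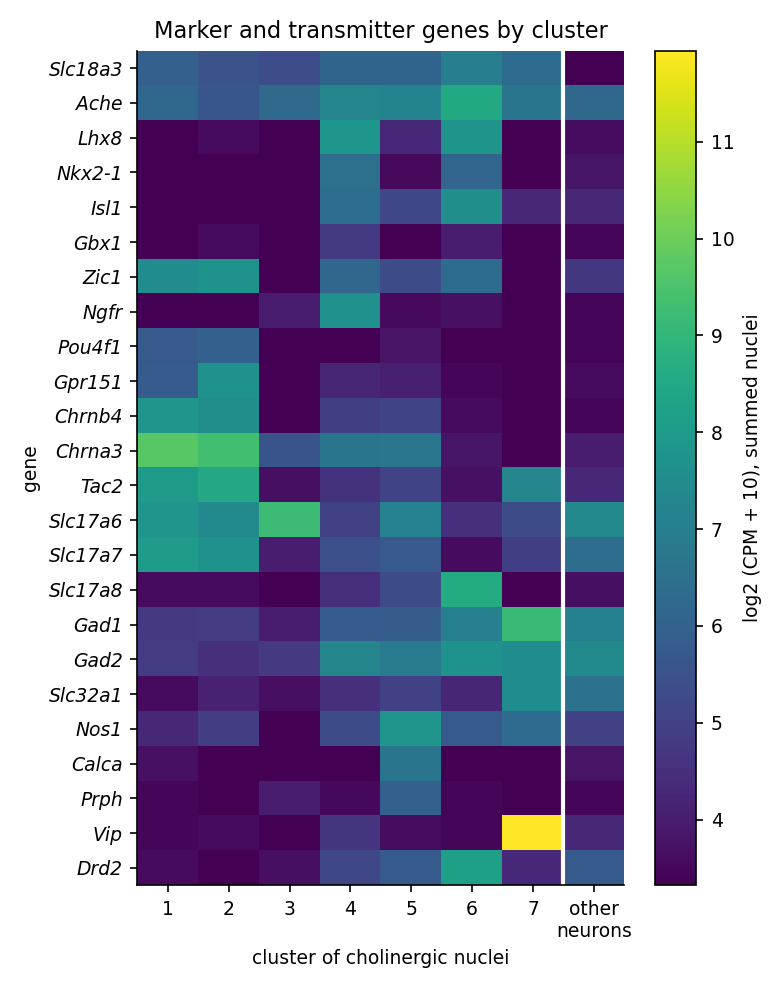
Heat map of marker and transmitter genes (rows) in the 7 clusters of cholinergic nuclei and in other neurons (columns), as log2 (CPM + 10) of summed nuclei. The habenular genes fill clusters 1 and 2, *Lhx8* fills clusters 4 and 6, and *Vip* fills cluster 7.

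Most cholinergic nuclei also held transcripts for another transmitter. A UMI of a vesicular glutamate transporter gene (*Slc17a6*, *Slc17a7* or *Slc17a8*) was found in 314 of 394 nuclei (79.7%), and of a GABA-synthesis gene (*Gad1* or *Gad2*) in 197 (50.0%). *Slc17a6* was found in 214 nuclei (54.3%), *Slc17a7* in 175 (44.4%) and *Slc17a8* in 70 (17.8%). The transporters fell by cluster: 110 of 111 nuclei in cluster 1 and 58 of 62 in cluster 2 held some *Slc17a* gene, while 56 of the 70 nuclei with *Slc17a8* were in cluster 6. *Gad1* or *Gad2* was found in 63 of 65 nuclei of cluster 6, in 37 of 49 of cluster 4 and in 13 of 13 of cluster 7. *Slc32a1*, which loads GABA into vesicles, was rarer, in 41 nuclei (10.4%), and 9 of the 13 nuclei of cluster 7 held it. *Nos1* was found in 74 nuclei (18.8%), 26 of them in cluster 5. A UMI shows a transcript in the droplet, and the share of it that is free RNA was not tested.

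To see what sets the cholinergic nuclei apart, their counts summed per mouse were compared with those of other neurons of the same mouse, that is, nuclei under the same limits with at least 3 UMIs of *Snap25*, *Syt1* and *Rbfox3* and none of *Chat* or *Slc5a7*. Of 16875 genes tested, 4759 (28.2%) passed an adjusted p of 0.05 in edgeR's quasi-likelihood test with the mouse as block, 1752 (10.4%) higher and 3007 (17.8%) lower in cholinergic nuclei. The median log2 fold change of all genes was -0.0693. Values below are log2 fold changes ± SE with p-values adjusted by the Benjamini-Hochberg method over all genes tested. A level in the sum follows both the level per nucleus and the mix of clusters, and these cannot be told apart in it.

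The machinery of acetylcholine was higher around the genes of the rule. Without *Slc18a3*, 7 of 12 listed genes were higher, 1 was lower and 4 did not pass. *Prima1*, which anchors acetylcholinesterase in the membrane, stood at 162, 261 and 451 CPM in cholinergic nuclei (lowest, median and highest of 12 mice) against 2.26, 5.07 and 12.1 CPM in other neurons. The groups were far apart, with a log2 fold change of 5.67 ± 0.12 (edgeR, adjusted p = 5.67e-22). *Acly*, which makes the acetyl-CoA that *Chat* consumes, stood at 171, 255 and 425 CPM against 26.5, 32.6 and 38.1 CPM, higher in 12 of 12 mice (3.03 ± 0.10, edgeR adjusted p = 3.83e-18). *Slc25a1*, the mitochondrial carrier that exports the citrate used by *Acly*, was higher by 1.71 ± 0.15 (edgeR adjusted p = 9.91e-10). *Ache*, the enzyme that cleaves acetylcholine, differed less, at 81.7, 135 and 286 CPM against 47.7, 64.7 and 77.6 CPM (1.14 ± 0.11, edgeR adjusted p = 4.49e-09). Its level was not even over the clusters and was highest in cluster 6. The acetylcholinesterase relative *Bche* (1.58 ± 0.39, higher in 9 of 12 mice), *Pcyt1a* (0.87 ± 0.11) and *Chkb* (0.41 ± 0.10) of phosphatidylcholine synthesis were also higher, and the choline kinase *Chka* was lower by -0.24 ± 0.07, a call lost with DESeq2 or with its size factors. The general choline transporters *Slc44a1* (-0.16 ± 0.07) and *Slc44a2* (0.10 ± 0.09), with *Colq* and *Pemt*, did not pass.

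**Figure D3:**
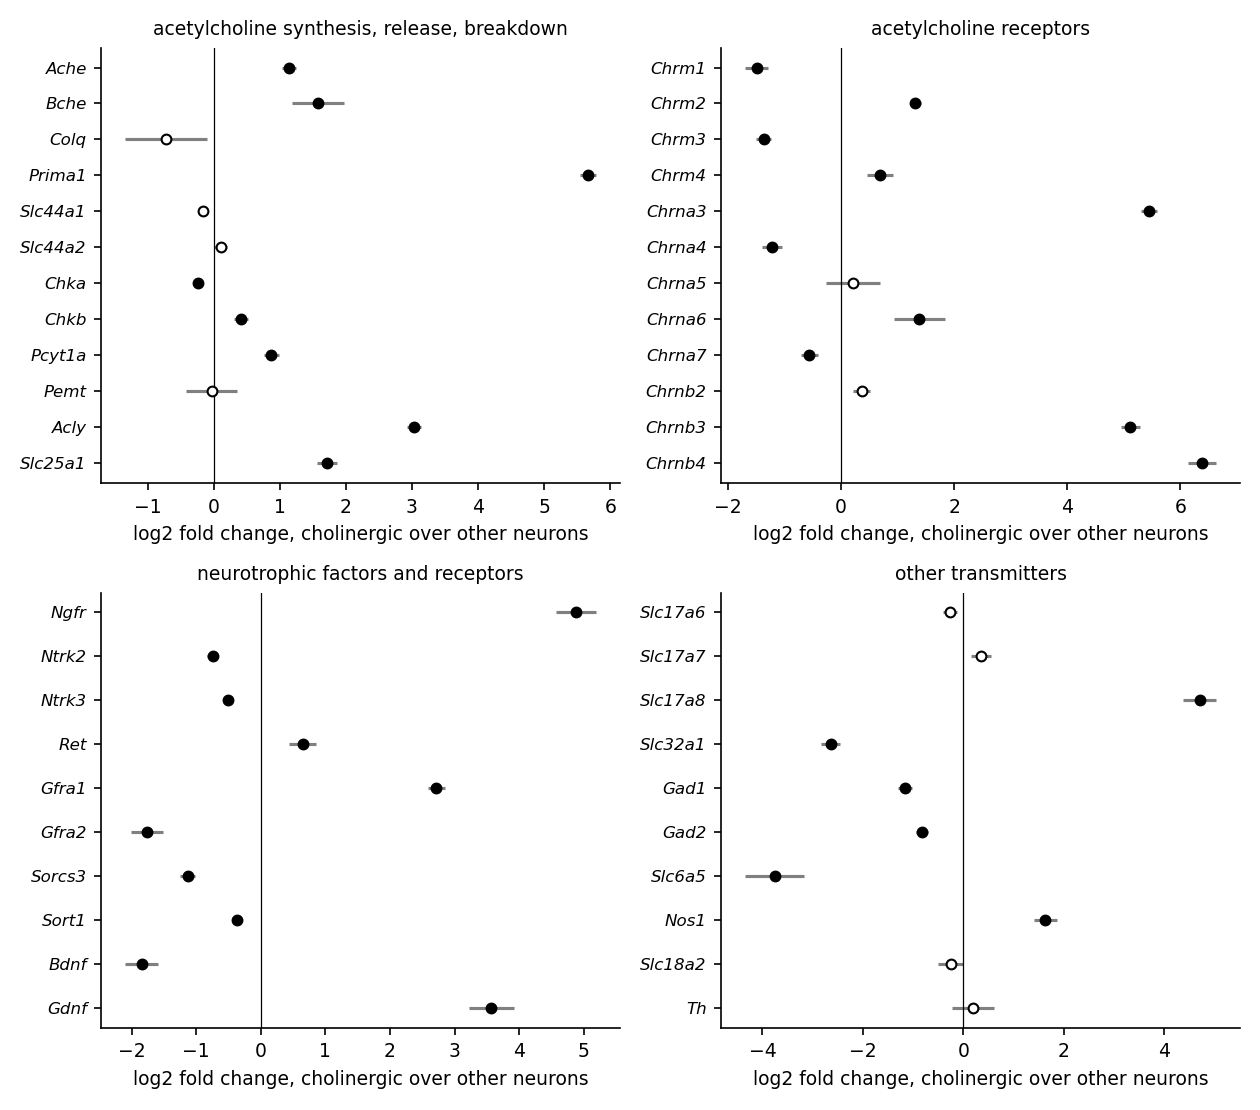
Log2 fold changes of cholinergic over other neurons for genes from the lists of acetylcholine machinery, acetylcholine receptors, trophic factors and their receptors, and other transmitters. Points are edgeR estimates over 12 mice with SE bars, filled where the adjusted p was under 0.05. *Chrnb4* (6.38) and *Prima1* (5.67) lie farthest to the right among the genes shown.

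Outside the lists, the rule for named genes took the 10 genes with the largest fold change in each direction, with the same sign in every mouse. The higher genes, *Slc18a3* and *Gm2990* of the locus aside, included *Gm5741* (7.35 ± 0.23), *Gm38534* (6.51 ± 0.26), *Slc10a4* (6.48 ± 0.18), *Chrnb4* (6.38 ± 0.25), *Lamc3* (6.28 ± 0.26), *Prima1* and *Chrna3*. *Slc10a4*, a vesicular transporter-like protein known from cholinergic terminals, stood at 46.0, 168 and 350 CPM against 1.26, 1.71 and 2.80 CPM (edgeR adjusted p = 7.52e-20). Its level was not shared by all cholinergic nuclei: it stood at 561 CPM in cluster 6, 283 CPM in cluster 4 and 104 CPM in cluster 5, and at 2.02 CPM or less in clusters 1, 2, 3 and 7. *Prima1* was present more widely, at 100 and 135 CPM in the habenular-like clusters, but 0 UMIs were found in cluster 7, where a count of 0 allows up to 37.2 CPM at 95% confidence. *Gm5741*, *Gm38534* and the laminin chain gene *Lamc3* had their highest levels in clusters 1 or 2. The genes lowest in cholinergic nuclei included *Cckbr* (-4.42 ± 0.37), *Ankrd33b*, *Vxn*, *Gda*, *Sh3rf2*, *Abhd12b*, *Itpka*, *Zfp831* and *Itga8* (-3.24). Some of these values turned on 1 mouse: *Cckbr* was at -5.58 without control 2, *Sh3rf2* at -4.53 without mutant 2 (-3.55 with it), *Ankrd33b* at -4.62 without mutant 2 (-4.02 with it) and *Abhd12b* at -4.90 without mutant 6 (-3.41 with it).

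Receptors for acetylcholine went in both directions, with 6 of 12 tested genes higher and 4 lower. *Chrna3* (5.44 ± 0.14), *Chrnb4* and *Chrnb3* (5.11 ± 0.17), which form the nicotinic receptors of the habenula, were higher in 12 of 12 mice. *Chrna3* and *Chrnb4* are neighbours at chr9:55010111-55026562 and chr9:55028154-55048779, and *Chrna5* of the same gene cluster did not pass (0.21 ± 0.48). Their levels followed the habenular-like clusters, with *Chrnb4* at 20.3 CPM in cluster 4 and 2.0 CPM in cluster 6. *Chrm2*, the inhibitory muscarinic receptor that acts as an autoreceptor on cholinergic neurons, ran the other way, at 32.4 and 5.4 CPM in clusters 1 and 2 and 605 to 1100 CPM in clusters 3, 4, 5 and 6. Over all cholinergic nuclei *Chrm2* stood at 309, 517 and 671 CPM against 143, 182 and 272 CPM in other neurons (1.32 ± 0.09, edgeR adjusted p = 5.6e-12). The excitatory muscarinic receptors *Chrm1* (-1.49 ± 0.21) and *Chrm3* (-1.37 ± 0.13), and the nicotinic subunits *Chrna4* (-1.22 ± 0.17) and *Chrna7* (-0.56 ± 0.15), were lower. Against neurons with *Slc17a6* and no *Gad* transcripts, *Chrm1* turned to 0.51 and no longer passed, and 5 of 10 genes were higher and 2 lower. *Chrm4* (0.69 ± 0.23) and *Chrna6* (1.39 ± 0.45) passed, and each call was lost when single mice were left out.

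Of trophic genes 5 were higher and 7 lower, of 12. *Ngfr* stood at 3.18, 22.9 and 76.9 CPM against 0.517, 0.890 and 1.68 CPM, higher in 12 of 12 mice (4.88 ± 0.31, edgeR adjusted p = 1.95e-12). It had 0 UMIs in the habenular-like clusters. *Gfra1*, the receptor subunit that binds glial cell line-derived neurotrophic factor, came mainly from those clusters, at 1271 and 1775 CPM, and stood at 246, 557 and 871 CPM overall against 56.3, 75.1 and 102 CPM (2.72 ± 0.13, edgeR adjusted p = 2.82e-15). Its ligand gene *Gdnf* (3.57 ± 0.35, higher in 9 of 12 mice) was found mainly in cluster 6, at 93.0 CPM, where *Gfra1* stood at 12.0 CPM. *Ret*, the signalling partner of *Gfra1*, was higher by 0.65 ± 0.21, and this call was lost without mutant 1, mutant 6 or control 3. The receptors *Ntrk2* (-0.75 ± 0.08), *Ntrk3* (-0.51 ± 0.08) and *Gfra2* (-1.76 ± 0.25), the sorting receptors *Sorcs3* (-1.13 ± 0.11) and *Sort1* (-0.37 ± 0.07), and the ligand *Bdnf* (-1.84 ± 0.26) were among the lower genes. Against *Slc17a6* neurons alone *Ntrk3* turned to 0.084 and did not pass, and the count was 3 higher and 6 lower of 11, with neither *Ret* nor *Gdnf* among the higher genes. Against GABA neurons alone *Bdnf* did not pass.

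Of 17 transcription factors listed for cholinergic identity 11 could be tested, and 7 were higher: *Lhx8* (4.87 ± 0.29), *Pou4f1* (3.60 ± 0.32), *Zic4* (2.76 ± 0.12), *Nkx2-1* (2.52 ± 0.25), *Isl1* (2.39 ± 0.18), *Zic1* (2.34 ± 0.13) and *Gbx1* (1.68 ± 0.42). They did not mark the same nuclei. *Zic1* stood at 169 and 203 CPM in clusters 1 and 2 and at 0 UMIs in clusters 3 and 7, and *Pou4f1* was found in clusters 1, 2 and 5. *Gbx2*, *Lhx6*, *Gata2* and *Gata3* did not pass, and *Isl2*, *Mnx1*, *Phox2a*, *Tbx20* and *Lhx4* were among those too low to test. Against GABA neurons alone 5 of 9 tested were higher, and *Gata3* and *Lhx6* were lower.

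Genes of other transmitters gave 2 higher and 5 lower of 11. *Slc17a8* (4.71 ± 0.33, higher in 11 of 12 mice) stood at 0, 87.7 and 159 CPM against 1.59, 2.96 and 3.93 CPM, and *Nos1* was higher by 1.63 ± 0.23 in 9 of 12 mice. *Slc32a1* (-2.64 ± 0.19), *Gad1* (-1.17 ± 0.14), *Gad2* (-0.83 ± 0.12) and the glycine transporter *Slc6a5*, of which cholinergic nuclei held 2 UMIs, were among the lower genes. Against neurons chosen for *Slc17a6* without *Gad* transcripts, where *Gad1* and *Gad2* are at 0 by choice, *Slc32a1* turned to 1.54 and the count to 6 higher and 2 lower of 10, and against GABA neurons alone it was 4 higher and 6 lower of 11. Both sets of neurons were chosen by genes of this list. *Slc17a6* (-0.27 ± 0.13, edgeR adjusted p = 0.143) and *Slc17a7* (0.35 ± 0.20, edgeR adjusted p = 0.203) did not pass, nor did *Slc18a2* and *Th* of monoamine neurons.

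Of 13 neuropeptide genes tested 4 were higher and 7 lower. *Tac2* was higher in 12 of 12 mice (3.32 ± 0.16), at 33.3, 106 and 161 CPM against 5.02, 9.21 and 13.1 CPM. *Vip* (2.73 ± 0.34), *Calca* (1.90 ± 0.54) and *Crh* (1.57 ± 0.42) were higher in 8, 6 and 7 of 12 mice, and the call of *Calca* was lost with DESeq2 or without mutant 1 (1.27) or mutant 3. That of *Crh* was lost with DESeq2 and against GABA neurons alone. *Vip* came mainly from cluster 7, the 13 cortical interneuron-like nuclei. *Penk* (-1.93 ± 0.22) and *Sst* (-2.24 ± 0.17), along with *Tac1*, *Nts*, *Npy* and *Trh* (-1.56, and -2.54 without control 1), were lower, as was *Pdyn*, with 1 UMI in all cholinergic nuclei. Against *Slc17a6* neurons alone *Penk* (-0.30) and *Npy* (-0.11) did not pass and the median of the list was -0.11, against -1.56 here, and against GABA neurons alone *Trh* (-0.26) did not pass.

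Immediate early genes, which neurons switch on after activity, were lower in 13 of 14 cases, against 17.8% of all genes tested. Some had few counts: *Fosb* and *Egr3* stood at no more than 3.62 and 5.12 CPM in any mouse's cholinergic nuclei. *Homer1* stood at 46.0, 60.9 and 87.0 CPM against 142, 219 and 430 CPM (-1.97 ± 0.13, edgeR adjusted p = 2.2e-12), with no overlap between the groups. *Fos* (-1.87 ± 0.22), *Egr1* (-1.59 ± 0.15) and *Arc* (-2.09 ± 0.25) were lower in 12 of 12 mice, with *Arc* at -2.73 without control 5. The exception was *Nr4a2*, higher by 2.54 ± 0.14, which stood at 373 and 408 CPM in the habenular-like clusters and at 47.7 CPM or less elsewhere. The count depended on the comparator: against *Slc17a6* neurons alone 7 of 12 tested were lower.

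In lists drawn for the disease 2 of 14 injury, 5 of 11 calcification, 2 of 6 PDGF and 3 of 11 interferon genes tested passed, against 28.2% of all genes. Their median log2 fold changes were -0.10, -0.34, -0.39 and 0.14, against -0.0693 over all genes. Of 14 tested genes of injury and cell stress *Ecel1*, a damage-induced endopeptidase gene, was higher (3.40 ± 0.20), at 33.5, 157 and 358 CPM against 10.3, 14.9 and 17.6 CPM, as was *Atf4* (0.43 ± 0.14). *Ecel1* stood at 549 CPM in cluster 6 and 321 CPM in cluster 4. Of 11 genes tied to brain calcification *Slc20a2* (-0.49 ± 0.11), *Slc20a1* (-0.25 ± 0.09), *Ank* (-0.34 ± 0.08) and *Nt5e* (-1.73 ± 0.37) of phosphate and pyrophosphate handling were lower, *Alpl* was higher (2.37 ± 0.50, on 16 UMIs) and *Xpr1*, the phosphate exporter, did not pass (0.17 ± 0.07). Of 6 PDGF genes *Pdgfa* (-0.79 ± 0.20) and *Pdgfra* (-0.98 ± 0.31) were lower, and *Pdgfb* did not pass, with 21 UMIs in all cholinergic nuclei. Of 11 interferon and MHC genes 2 were higher, *H2-D1* (0.79 ± 0.13) among them, and *Herc6* (-1.36 ± 0.30) was lower.

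Within the cholinergic nuclei the genotypes were then compared. Of 6922 genes tested in the sums of the 12 mice 0 (0%) passed in edgeR's quasi-likelihood test, while 580 had an unadjusted p under 0.05. DESeq2 called 6. The 3 genes with the smallest p in each direction are given as values that did not pass, each with an edgeR adjusted p of 0.158. *Rgs12*, a regulator of G protein signalling, stood at 32.5, 52.9 and 79.4 CPM in mutants (lowest, median and highest of 6) and 10.9, 17.3 and 31.8 CPM in controls. *Rapgef5*, an exchange factor for Rap proteins, stood at 108, 146 and 184 CPM and 53.1, 63.8 and 107 CPM. *Cxcl14*, a chemokine, stood at 27.5, 62.0 and 102 CPM and 0, 9.37 and 29.7 CPM. These 3 were higher in mutants, by 1.35 ± 0.27, 0.99 ± 0.20 and 2.22 ± 0.46 on the log2 scale, and the groups overlapped for *Cxcl14*, which was at 2.83 and passed without control 6. *Kitl*, the ligand of the Kit receptor, stood at 53.8, 115 and 178 CPM in mutants and 191, 235 and 299 CPM in controls. *Sstr4*, a somatostatin receptor, stood at 6.36, 14.2 and 22.5 CPM and 25.6, 33.4 and 44.7 CPM. *Spon1*, a secreted matrix protein, stood at 10.2, 16.9 and 33.2 CPM and 29.7, 49.8 and 76.0 CPM. They were lower in mutants, by -1.08 ± 0.21, -1.20 ± 0.26 and -1.31 ± 0.29, with an overlap for *Spon1*.

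The same genes differed in level by cluster, though not all alike. *Rapgef5* stood at 215 CPM in cluster 6 and also at 143 and 139 CPM in clusters 5 and 4. *Spon1* was highest in cluster 2 at 73.75 CPM, but stood at 12.15 CPM in cluster 1, below 15.99 CPM in cluster 6. *Rgs12* and *Cxcl14* stood at 129 and 137 CPM in cluster 6 and at 33.0 and 40.4 CPM or less elsewhere, while *Kitl* stood at 409 and 534 CPM and *Sstr4* at 45.6 and 97.1 CPM in the habenular-like clusters and at 0 and 2.0 CPM in cluster 6. Of the cholinergic machinery 10 genes were tested for genotype and 0 passed, with a median log2 difference of 0.27 against -0.01 over all genes. The genes of the rule, with no test, stood at 258, 357 and 401 CPM in mutants and 258, 284 and 405 CPM in controls for *Chat*, and at 472, 692 and 869 CPM and 414, 523 and 677 CPM for *Slc5a7*. *Ache* stood at 105, 180 and 286 CPM in mutants and 81.7, 128 and 138 CPM in controls (0.70 ± 0.20, edgeR adjusted p = 0.345), and *Slc18a3* at 45.2, 72.0 and 133 CPM and 43.4, 47.0 and 81.0 CPM (0.54 ± 0.24, edgeR adjusted p = 0.552). *Ecel1* (1.42 ± 0.32, edgeR adjusted p = 0.158) was among the larger values that did not pass. In each of the other lists 0 genes passed as well, of 6 trophic, 5 identity, 7 transmitter, 3 neuropeptide, 7 receptor, 2 immediate early, 8 injury, 4 calcification, 1 PDGF and 2 interferon genes tested.

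To ask whether a genotype difference was particular to cholinergic nuclei, the difference in them was tested against that in other neurons of the same mice. Of 17837 genes 31 (0.174%) passed this interaction test in edgeR, 22 (0.123%) with a higher and 9 (0.0505%) with a lower genotype difference in cholinergic nuclei, and 1370 had an unadjusted p under 0.05. None of the 31 was in the lists of acetylcholine machinery, receptors, trophic genes, identity factors, transmitters or peptides. Among those with a higher value, *Adcy2*, an adenylyl cyclase, stood at 468, 611 and 664 CPM in mutants and 97.8, 304 and 490 CPM in controls, against 237, 270 and 291 CPM and 247, 311 and 363 CPM in other neurons (interaction 1.38 ± 0.26, edgeR adjusted p = 0.0265). *Tshz3*, a zinc finger factor, stood at 57.3, 105 and 154 CPM and 10.2, 42.2 and 102 CPM, against 35.9, 39.3 and 49.2 CPM and 50.3, 62.2 and 73.5 CPM in other neurons (1.77 ± 0.28, edgeR adjusted p = 0.00369). In other neurons alone *Tshz3* was lower in mutants by -0.58 ± 0.12 (edgeR adjusted p = 0.0439), so its value draws on both classes. *Mical2*, an actin oxidase gene, stood at 71.6, 99.5 and 118 CPM and 61.5, 70.1 and 78.8 CPM in cholinergic nuclei, and 75.9, 111 and 151 CPM and 126, 194 and 249 CPM in other neurons (1.14 ± 0.18, edgeR adjusted p = 0.00369). In other neurons alone its difference of -0.73 ± 0.21 did not pass (edgeR adjusted p = 0.133).

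The other named genes with a higher value were *Rapgef5* (1.20 ± 0.19), *Nos1ap*, an adaptor of neuronal nitric oxide synthase (1.14 ± 0.20), *Fmnl1*, a formin (1.98 ± 0.38), *Galnt18*, a glycosyltransferase (1.05 ± 0.21), *Meis3*, a homeodomain factor (1.11 ± 0.23), *Csmd2* (0.95 ± 0.19) and *Trabd2b* (4.34 ± 0.89, on 20 UMIs in cholinergic nuclei, and 5.02 and 4.98 without control 2 and control 5). The call of *Trabd2b* was lost without mutant 2, 4 or 5 or without control 4 or 5. Those with a lower value were *Spon1* (-1.41 ± 0.25), *Ano1* (-1.39 ± 0.24), *Tcf7l2* (-0.97 ± 0.21), *Tmem266* (-0.96 ± 0.19), *Nnat* (-0.96 ± 0.20), *Kitl* (-0.95 ± 0.19), *Trpm3* (-0.88 ± 0.18), *Epha3* (-0.87 ± 0.19) and *Nrp2* (-0.77 ± 0.16). *Ano1*, a calcium-activated chloride channel, stood at 146, 267 and 353 CPM in mutants and 257, 375 and 567 CPM in controls. *Tcf7l2*, a factor of thalamic and habenular neurons, stood at 61.5, 159 and 168 CPM and 199, 242 and 337 CPM, with no overlap. *Trpm3*, a cation channel, stood at 1381, 2537 and 3517 CPM and 2814, 3704 and 4646 CPM.

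These genes also differed in level by cluster. Of the 10 named genes with a higher value 9 had their highest level in cluster 6, where *Tshz3* stood at 314 CPM against 46.9 CPM or less in the others and *Adcy2* at 1292 CPM. Other margins were small: *Mical2* stood at 124 CPM in cluster 6 and 101 CPM in cluster 4, and *Trabd2b* at 10.0 and 8.10 CPM in clusters 6 and 1. Of the 9 with a lower value 8 were highest in cluster 1 or 2, among them *Ano1* (841 and 797 CPM against 23.0 CPM in cluster 6), *Tcf7l2* (508 and 460 CPM against 3.0 CPM) and *Nrp2*, a semaphorin receptor (929 and 809 CPM against 40.0 CPM). For *Spon1* and *Nnat* this held for cluster 2 alone, as cluster 1 (12.15 and 57.7 CPM) lay below cluster 6 (15.99 and 61.98 CPM). The share of all tested genes that are highest in these clusters is not given, so neither count can be set against it. With cluster 6 left out 0 of the interaction genes passed, 1088 had an unadjusted p under 0.05, and the 31 genes kept their sign at a median of 0.72 times their value. The cluster was formed from these same values and held 49 mutant and 16 control nuclei. Its removal therefore cannot tell cluster size from gene level. With the habenular-like clusters alone 21 genes passed, 3 of them among the 31, and 26 of the 31 kept their sign. Both fits were chosen after seeing the data. The number called ran from 6, without control 5, to 82, without control 6, the male. The part of sex in these values was not tested.

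Cluster 6 was the cluster whose share differed most between the genotypes, but no cluster passed the test over all 7. It made up 24.3% ± 8.05 (SD, n = 6) of a mutant's cholinergic nuclei, with a lowest value of 14.3%, a median of 24.1% and a highest of 36.4%. In controls it made up 8.60% ± 9.40 (SD, n = 6), with values of 0%, 7.11% and 23.1%. Every mutant had nuclei of cluster 6, from 5 to 16, and 2 of the 6 controls had 0, of 36 and 28 cholinergic nuclei. The difference of 15.7 percentage points gave p = 0.0130 in the exact permutation test, but adjusted over the 7 clusters p = 0.0909. Its share was higher in the mutant in 6 of 6 pairs of mice with the same number, and in 6 of 6 pairs of the same age (exact sign-flip permutation p = 0.0312 for each pairing, the smallest that 6 pairs allow, and adjusted p = 0.109). Per 10000 nuclei the values were 10.7 ± 4.19 and 3.66 ± 4.51 (exact p = 0.0216, adjusted p = 0.152). *Tshz3*, which is among the genes that set cluster 6 apart, differed with genotype in the interaction test, so cluster size and gene level cannot be told apart here.

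Cluster 2 had the lower mean share in mutants, at 12.1% ± 4.07 and 19.0% ± 4.57 (SD, n = 6 each, exact permutation p = 0.0303, adjusted p = 0.106). It was lower in the mutant in 6 of 6 pairs by number and in 6 of 6 by age (exact sign-flip permutation p = 0.0312, adjusted p = 0.109 for each). Cluster 1 stood at 24.1% ± 8.14 and 31.6% ± 9.85, cluster 4 at 14.6% ± 10.3 and 10.2% ± 5.08, and cluster 5 at 18.3% and 18.7%. None of these passed, nor did clusters 3 and 7. At the finer resolution the 32 nuclei led by *Unc5d* were 29 from mutants and 3 from controls, or 14.9% ± 7.18 and 1.89% ± 2.19 of a mouse's cholinergic nuclei (SD, n = 6 each, exact permutation p = 0.00216, the smallest the design allows, and adjusted p = 0.0238 over 11 groups). That adjustment does not cover the clusters at resolutions 0.4 and 0.2, which were also run. The 33 nuclei led by *Rgs6*, with the high *Drd2*, were 20 and 13. Both groups were formed from the same expression values, so group size and gene level cannot be told apart in them. Their relation to striatal projection neurons, given below for cluster 6 as a whole, is not given for these groups.

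**Figure D4:**
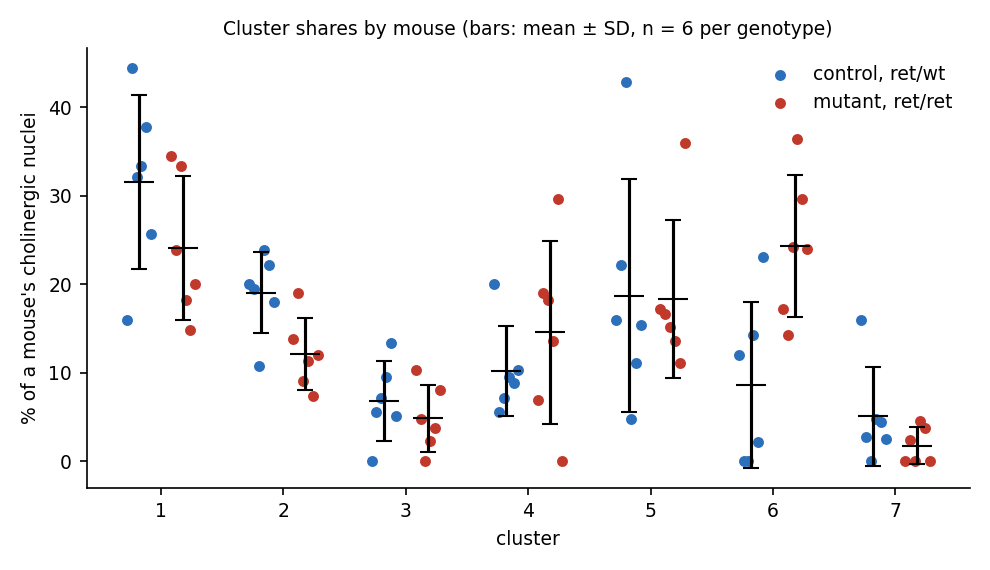
Share of each cluster (x axis) in a mouse's cholinergic nuclei in percent (y axis), 1 point per mouse, with bars for the mean ± SD of 6 mice a genotype. Cluster 6 lies at 14.3 to 36.4% in mutants and at 0 to 23.1% in controls, and the groups overlap.

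Libraries differed in their share of nuclei classed as striatal projection neurons, and the number of cluster 6 nuclei varied with that share. These neurons, counted from *Drd1*, *Drd2*, *Ppp1r1b* and *Rgs9*, made up 0.375% to 14.1% of nuclei. Striatum is not among the regions named for the dissection, and the tissue these nuclei came from was not tested. By genotype they made up 7.94% ± 3.86 in mutants and 6.01% ± 5.14 in controls (SD, n = 6 each, exact permutation p = 0.461). Over the 12 mice the number of cluster 6 nuclei per 10000 rose with that share (Pearson r = 0.794, permutation p = 0.00197, adjusted p = 0.0138 over 7 clusters, Spearman rho = 0.757, permutation p = 0.0059, adjusted p = 0.0413). Both numbers come from the same library and denominator. Without the 2 mice farthest from the median r was 0.628, and within genotypes it was 0.799 in mutants (exact permutation p = 0.0611) and 0.955 in controls (exact permutation p = 0.0111). Per 100 striatal projection neurons, a ratio chosen after these values were seen, cluster 6 counted 1.48 ± 0.414 in mutants (0.788, 1.53 and 1.92) and 0.410 ± 0.344 in controls (0, 0.496 and 0.847). The highest control lay above the lowest mutant. The controls at 0 held 28 and 170 such neurons, so that their ratios rest on few nuclei, and no test is given for this ratio.

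**Figure D5:**
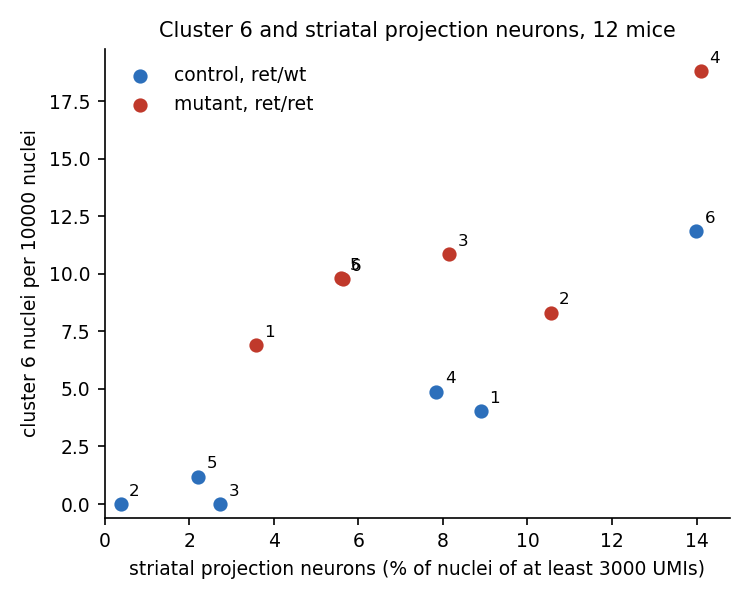
Cluster 6 nuclei per 10000 nuclei of at least 3000 UMIs (y axis) against striatal projection neurons in percent of those nuclei (x axis), 1 point per mouse, coloured by genotype. Mutant 3 had 10.9 cluster 6 nuclei per 10000 at a striatal share of 8.15%, and control 4 had 4.88 at 7.85%.

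Markers of other cells were summed in the cholinergic nuclei and in other neurons of each mouse. The 6 astrocyte genes summed to 102 to 223 CPM in mutants and 103 to 490 CPM in controls, against 246 to 518 CPM over the libraries of other neurons, with 0 of 6 genes at 0. The 6 microglial genes summed to 3.94 to 33.2 CPM against 14.7 to 23.6 CPM, with *Csf1r* at 0 by the rule, and the 4 mural genes to 17.9 CPM or less against 3.42 to 13.8 CPM. The ranges of both lists overlapped those of other neurons and reached above them. The 4 ependymal and choroid plexus genes summed to 0 to 41.5 CPM in mutants and 4.24 to 285 CPM in controls, against 4.01 to 66.1 CPM and 4.17 to 197 CPM in other neurons. The highest of these values was that of control 3, with *Ttr*, the transthyretin gene of choroid plexus, at 271 CPM. The 5 thalamic genes, which include *Tcf7l2*, summed to 200 to 461 CPM in mutants and 348 to 701 CPM in controls, against 442 to 614 CPM and 397 to 705 CPM in other neurons. The 6 striatal projection genes summed to 576 to 2660 CPM and 360 to 1216 CPM, against 1039 to 2006 CPM and 834.5 to 2046 CPM. Median UMIs of cholinergic nuclei were 12487 ± 1568 in mutants and 10901 ± 1608 in controls (SD over mice, exact permutation p = 0.115). The part of these in the genotype values was not tested.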

How the data were processed

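Single-nucleus libraries (10x Genomics, 5′ chemistry) were made from 6 control and 6 mutant mice. The authors counted UMIs per gene and nucleus with Cell Ranger 5.0.1 (bcl2fastq 2.20.0.422) on mm10 with introns included, and the deposited matrices hold these raw counts. Nuclei with over 500 and under 7000 genes, under 20% mitochondrial UMIs and at least 3000 UMIs were used. The genes and lists reported, and the rule that chose the nuclei, were picked with earlier results of these data known.

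UMIs were summed per mouse and class, and the mouse was the replicate (1 library each, 6 a genotype). edgeR 4.0.16 (R 4.3.3) fitted these sums with filterByExpr and TMM, genotype alone within cholinergic nuclei and the mouse as block between classes, with a threshold of 0.05 after Benjamini-Hochberg adjustment. The genes of the rule were left out of tests between classes. Shares of nuclei were compared with exact permutation tests over the mice. Clusters came from scanpy 1.11.5 (2000 variable genes, 20 components, 20 neighbours, Leiden resolution 0.4, finer 0.8), and doublets were marked with Scrublet but kept. Gene positions are those of GENCODE M21 (32158 of 32288 features matched). Depth is given with the results. A few listed genes are counted with their lists but not reported here.

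Genes were named by 3 rules: genes of the lists (acetylcholine machinery and receptors, trophic genes, identity factors, transmitters, neuropeptides, immediate early, injury, calcification, PDGF and interferon genes), up to 10 genes in each direction past the threshold for genotype and interaction (or 3 each where fewer than 5 passed), and the 10 largest fold changes in each direction between classes among genes of at least 20 CPM with 1 sign in every mouse. Genes and groups singled out beyond these were chosen after their values were seen. Alternatives were DESeq2 1.42.0, its size factors, no filter on low counts, other limits on UMIs, removal of doublets, other comparison neurons, other resolutions, a replicate block and leaving out each mouse. Fits on part of the clusters were added after seeing the data.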

Additional observations from a re-analysis of the deposited data

Results flagged for a closer look

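Among 40 groups of 6 mice examined for a mouse far from the others, 4 held one, where chance flags about 1 in 20 groups. Mutant 6 had 36% of its cholinergic nuclei in cluster 5 against 11.1% to 17.2% in the other mutants. Control 1 had 20.0% in cluster 4 against 5.56% to 10.3% in the other controls, and 16.0% in cluster 7, the cortical interneuron-like nuclei, against 0% to 4.76%. It gave 25 cholinergic nuclei in all. Control 3 had *Slc18a3* at 81.0 CPM against 43.4 to 56.2 CPM in the other controls.

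The named genes whose genotype difference in cholinergic nuclei differed from that in other neurons, by edgeR's interaction test, had log2 values of 1.20 (*Rapgef5*), 1.14 (*Mical2*), 1.77 (*Tshz3*), 1.14 (*Nos1ap*), 1.38 (*Adcy2*), 1.98 (*Fmnl1*), 1.05 (*Galnt18*), 1.11 (*Meis3*), 4.34 (*Trabd2b*) and 0.95 (*Csmd2*) on the higher side. On the lower side they were -1.39 (*Ano1*), -1.41 (*Spon1*), -0.96 (*Tmem266*), -0.95 (*Kitl*), -0.96 (*Nnat*), -0.88 (*Trpm3*), -0.77 (*Nrp2*), -0.97 (*Tcf7l2*) and -0.87 (*Epha3*). With cluster 6 left out, 0 of them passed, while the 31 interaction genes kept their sign at a median of 0.72 times their value. That fit was chosen after seeing the data, and the cluster was formed from the same values.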

How the results depend on the processing

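The genotype comparison within cholinergic nuclei called 6 genes with DESeq2, 97 with no filter on low counts and 0 to 6 without single mice (1 without control 4, 6 without control 6). The interaction called 20 genes with DESeq2, 62 with no filter, 56 with at least 5 UMIs of *Slc5a7* and *Chat*, 11 with nuclei of at least 6000 UMIs and 6 to 82 without single mice. It called 0 without cluster 6, a fit chosen after seeing the data. The comparison with other neurons called 4412 to 4658 genes without single mice and changed by less than 1.5 times under every other setting run. The difference in the share of cholinergic nuclei was -0.0130 percentage points with at least 2 UMIs of *Slc5a7* and *Chat*, and -0.0228 to 0.0274 without single mice. At resolution 0.8, 1 group of nuclei differed in share, and 0 to 2 clusters did without single mice. The difference of cluster 6 was 1.07 per 100 striatal projection neurons, chosen after seeing the data, and 13.3 to 18.6 percentage points without single mice, passing (adjusted exact permutation p = 0.0455) without mutant 2 or control 6. That of cluster 2 was -8.57 to -5.95, passing without mutant 2 or control 3, and that of cluster 5 was -3.96 to 4.41, with either sign. Signs also turned for *Abhd12b* against GABA neurons (1.15), for *Ntrk3* (0.084), *Slc32a1* (1.54), *Gad1* (11.4), *Gad2* (12.1) and *Chrm1* (0.51) against *Slc17a6* neurons, which were chosen to lack *Gad1* and *Gad2*, and for *Csmd2* (-0.16) and *Epha3* (0.43) in the interaction with habenular-like nuclei alone. The cause was not tested. Single values were also counted under all settings, for the named genes and for the clusters other than 2 and 6. List genes called between the classes were included, apart from the lists drawn for the disease. Of these values, 2183 kept their sign and side of the threshold, 148 lost and 10 gained a call, and 13 changed sign. Mice numbered 1 to 4 had the same age in both genotypes, while mutants 5 and 6 matched controls 6 and 5. Mice with the same number did not deviate together (correlations -0.158 to 0.018), and those of the same age gave -0.158 to 0.144, over 0.1 in 1 of 6 pairs. No label gives a shared litter or day, so the main tests stayed unpaired. A replicate block by number or by age left 0 genotype calls, a share difference of 0.00418 and 0 of 7 clusters past the threshold (the blocks by age of the shares and those of the clusters were chosen after seeing the data). The exact sign-flip permutation test of 6 pairs gives no p below 0.0312. No single cluster could then pass after adjustment over 7, so that count of 0 says little about pairing.

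With 21 to 45 cholinergic nuclei a mouse, 6922 genes could be tested for genotype against 16875 between the classes, and some calls rest on few UMIs. The class fit and the interaction fit each share 1 spread between sums of very unlike depth.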

Other observations

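The habenular-like nuclei fell into a pair of clusters with unlike leading genes, given as a description of nuclei that the same genes separated. Cluster 2 carried *Col25a1*, a transmembrane collagen gene, at 1155 CPM against 119 CPM in all other cholinergic nuclei, the serotonin receptor genes *Htr4* at 644 CPM against 75.3 CPM and *Htr5b* at 126 CPM against 13.0 CPM, and *Slit2*, an axon guidance ligand, at 1448 CPM against 261 CPM. Cluster 1 carried *Tspan18*, a tetraspanin, at 956 CPM against 165 CPM, *Robo3*, a guidance receptor of the family that binds Slit proteins, at 808 CPM against 141 CPM, and the factor *Ebf1* at 832 CPM against 147 CPM. At the finer resolution cluster 1 split into 37 and 73 nuclei, the second with *Lamc3* and *Calcrl*, a receptor component for calcitonin gene-related peptide, among its leading genes. *Htr4* and *Col25a1* were also among the leading genes of those 73 nuclei against the rest of cluster 1. The values above compare each cluster with all other cholinergic nuclei and not clusters 1 and 2 with each other.

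In the 12 cortical libraries the 58 nuclei that met the same limits came to 32 from mutants and 26 from controls. Mutant 5 gave 19 of them and control 5 gave 13, and every other cortical library gave 0 to 7.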
